A study of Mus musculus with 11 samples.

Results

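Sprr1a encodes small proline-rich protein 1A, and it was followed here through 11 Visium sections of mouse liver taken before and after acetaminophen (APAP) injury. It is 1 of the 31053 genes of the deposited tables and was found by its symbol. It was chosen by measured values of these sections, since its fitted change against 0 h ranked 1 at 24 h, 1 at 36 h and 2 at 48 h among 14821 genes tested. Those changes, and the differences between the injured times that follow from them, are therefore described below with no test. Tests of Sprr1a are kept for the place of its transcript within a section, which the choice did not use. Other genes, from lists, are tested between times.

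The groups were 3 uninjured liver sections (0 h, replicates 2, 3 and 4) and 8 injured ones, with sections A and B for 24 h, sections A and B for 36 h, and sections A, B, C and D for 48 h after APAP, a drug that in overdose is toxic to hepatocytes around the central vein. The study used C57BL/6JCrl mice of 8 to 12 weeks, male unless a figure legend says otherwise. Mice given APAP had been fasted for 12 h before an intraperitoneal dose, and whether the 0 h mice were fasted is not stated. The labels give no sex, allele or transgene for these sections. The livers were snap-frozen and cryosectioned, and each section was 1 library of spots that capture polyadenylated RNA, where a spot can hold several cells. The study's methods name 1 mouse liver for each time in the Visium experiment, so n counts sections, p-values cover only the spread between sections, and mouse, processing batch and time cannot be told apart.

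SPRR proteins are small proline-rich precursors of the cornified envelope, the cross-linked protein layer beneath the membrane of terminally differentiated squamous cells, into which transglutaminases join them. Sprr1a is also known outside the skin as a gene switched on in injured sensory neurons, where it supports axon outgrowth, and in stressed heart muscle, where signalling through gp130, the shared receptor of the interleukin-6 family, induces it. Its family is known to be controlled by AP-1, the dimeric transcription factor built from Jun and Fos proteins.

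The gene (ENSMUSG00000050359) lies on the minus strand of chromosome 3 at 92483952 to 92485895 in mm10. Its single annotated transcript has 2 exons, at 92485850 to 92485895 and at 92483952 to 92484711, and a coding sequence of 432 bases. No other annotated gene overlaps it, and its neighbours Sprr3 and Sprr4 are 25232 and 14368 bases away, within a run of 15 SPRR genes that spans 285 kb. The 250 bases before its RefSeq start (GRCm38.p6, chr3:92485882-92486131, minus strand) are shown because AP-1 subunits were among the genes measured beside it, with matches to the AP-1 motif, TGACTCA or TGAGTCA, in capitals.

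Sprr1a: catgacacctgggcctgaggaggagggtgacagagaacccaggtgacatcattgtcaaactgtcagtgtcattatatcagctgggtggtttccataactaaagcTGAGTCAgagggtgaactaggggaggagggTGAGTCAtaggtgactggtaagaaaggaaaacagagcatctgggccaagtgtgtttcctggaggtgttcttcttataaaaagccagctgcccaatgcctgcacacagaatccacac

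The window held 2 matches, both TGAGTCA, at 146 to 140 and 116 to 110 bases before the start. Of 32851 RefSeq promoter windows of that length, 1466 (4.46%) held at least 1 match on either strand and 55 (0.167%) held at least 2. Among the 13 other SPRR promoters in the table, 7 (53.8%) held at least 1, and 1 of these, Sprr2k, held 2. The STAT motif TTCCNGGAA had no match in the Sprr1a window and was present in 300 promoters (0.913%). A match is a run of letters and not evidence of binding.

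The sections held 25136 spots past the filter, 1490 to 3466 each, with 31292663 to 67045372 UMIs (unique molecular identifiers, 1 per captured transcript) per section. All 6 matched hepatocyte markers were present, summing to between 72882 and 114744 CPM. CPM here is UMIs per 1000000 of a section's total after TMM scaling. Section 48 h D stood apart from the other 48 h sections in Sprr1a itself, and its level and changes at 48 h are given with and without it.

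Sprr1a was close to absent before injury and abundant at 24 h. The 0 h sections held 2, 2 and 0 UMIs, which is 0.0440 and 0.0368 CPM in replicates 2 and 3, and replicate 4 could have held up to 0.0847 CPM, the level of 3 UMIs. At 24 h sections A and B held 9944 and 6843 UMIs, or 214 and 218 CPM. No injured section came near the level of an uninjured one.

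At 36 h the level was 44.3 CPM in section A and 75.9 CPM in section B, from 1531 and 2662 UMIs. The later sections 48 h A to D had 7881, 2919, 10956 and 853 UMIs, or 114, 58.8, 157 and 12.3 CPM. Both 24 h sections thus lay above all 6 later ones, and the 48 h values spread over the whole range of the 36 h values and beyond it on both sides.

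**Figure D1:**
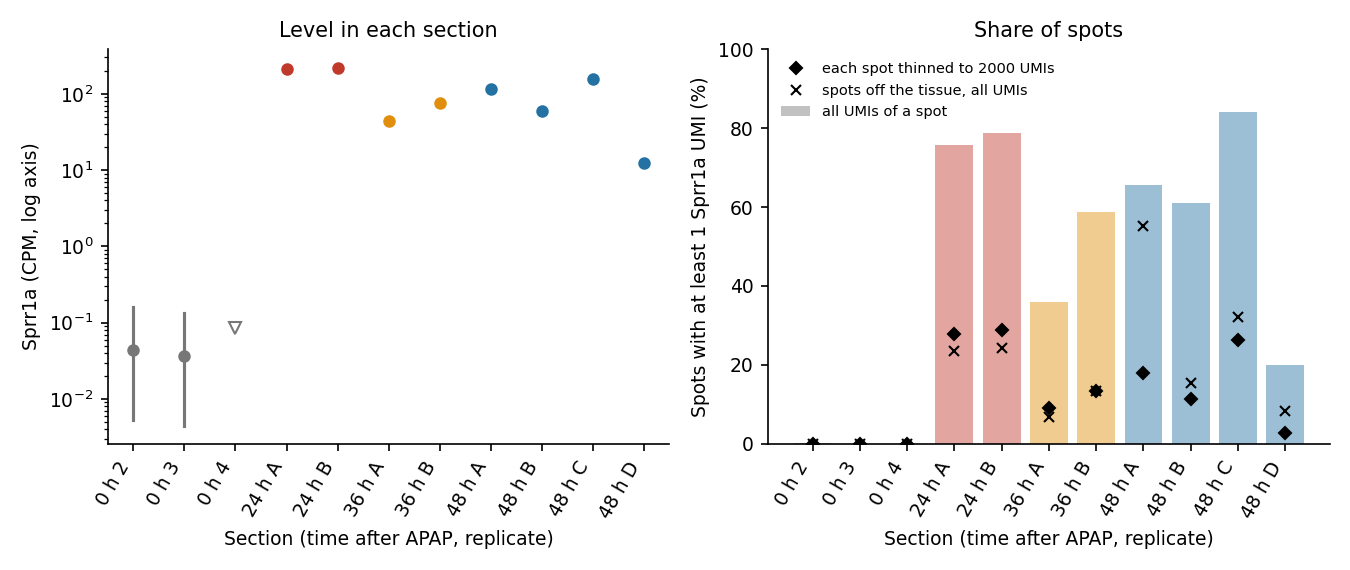
The left panel plots Sprr1a CPM on a log axis for each of the 11 sections with 95% counting intervals, and the open triangle marks the level of 3 UMIs in 0 h replicate 4, which held none. The right panel gives the percentage of passing spots with at least 1 Sprr1a UMI (bars), the same after thinning each spot to 2000 UMIs (diamonds) and the share among spots off the tissue (crosses). The 24 h sections stand at 214 and 218 CPM, and the 48 h sections run from 12.3 to 157 CPM.

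Group means were 0.0269 ± 0.0236 CPM at 0 h (SD, n = 3), 216 ± 3.16 at 24 h (n = 2), 60.1 ± 22.3 at 36 h (n = 2) and 85.6 ± 63.3 at 48 h (n = 4). With section D left out the 48 h mean was 110 ± 49.3 CPM (n = 3). Set against the 4 UMIs of the 0 h sections, the level was 7288-fold higher at 24 h (95% counting interval 2846 to 26750), 2037-fold at 36 h (795 to 7479) and 2965-fold at 48 h (1158 to 10883), or 3901-fold without 48 h D (1523 to 14319). Those intervals are wide since 4 UMIs stand behind the uninjured level, whereas the injured sections held 853 to 10956 each.

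The fitted log2 changes against 0 h were 12.72 at 24 h, 10.87 at 36 h and 11.38 at 48 h, the last 11.74 without 48 h D. Scaling by the plain total moved them to 13.01, 11.27 and 11.89, beside a shift of the median of all genes to 0.37, 0.49 and 0.54 from 0.047, 0.048 and 0.011. Against 24 h the gene was lower by a log2 of −1.84 (SE 0.838) at 36 h and −1.34 (SE 0.678) at 48 h, or −0.97 (SE 0.361) without 48 h D. By UMIs it ranked 614 and 559 among all genes of the 24 h sections, 2502 and 1485 at 36 h, and 1027, 1890, 730 and 6345 in 48 h sections A to D.

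Between 36 h and 48 h the fitted log2 difference was 0.51 (SE 0.72), which is the difference of 2 of the changes that chose the gene and so has no test here. In that comparison 3.05% of the 14821 genes were called in either direction in edgeR. The value leaned on single sections. Without 48 h D it was 0.87, without 48 h C 0.038, and without 36 h A or B 0.17 or 0.94.

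The spread at 48 h was wider than for most genes. The highest 48 h section held 12.8 times the Sprr1a CPM of the lowest, whereas the median gene of 7088 with a mean of at least 10 CPM had a ratio of 1.25, and 5 genes had a wider one than Sprr1a. Section D, which was lowest in Sprr1a, summed to 357 CPM for the migratory hepatocyte list against 439 to 565 in the other 48 h sections, to 624 against 975 to 1467 for the cholangiocyte list, and to 18010 against 12683 to 15169 for the portal hepatocyte list. Its cycling list summed to 80.2 CPM against 26.7 to 58.9. The part of these differences in the Sprr1a level was not tested, and in a summed section fewer cells of a type and less RNA per cell cannot be told apart.

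At 24 h about 3 in 4 spots held the transcript. The share of passing spots with at least 1 Sprr1a UMI was 75.8% and 78.7% in 24 h A and B, 35.8% and 58.7% in 36 h A and B, and 65.5%, 61.1%, 84.1% and 19.8% in 48 h A to D. At 0 h it was 0.103%, 0.0372% and 0%, the last allowing up to 0.129%. The highest share therefore belonged to a 48 h section, 48 h C, although its CPM was below that of both 24 h sections.

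Depth per spot differed between sections, so each spot was also thinned to 2000 UMIs. The shares then became 27.9% and 28.8% at 24 h, 8.93% and 13.3% at 36 h, and 18.0%, 11.2%, 26.3% and 2.69% in 48 h A to D. On this scale both 24 h sections lay above every later one, as they did in CPM.

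RNA also reached spots off the tissue. There the share with a Sprr1a UMI was 23.4% and 24.3% at 24 h, 6.65% and 13.4% at 36 h and 55.2%, 15.3%, 32.0% and 8.16% in 48 h A to D, at median depths of 952 to 10293 UMIs per spot. Relative to all UMIs, Sprr1a off the tissue stood at 69.5% to 88.2% of its level on the tissue of the same section, and these spots carried 8.75% to 22.7% of all its UMIs. A single UMI in a spot is therefore weak evidence of a cell that expressed the gene there, and the comparisons of place that follow use mean levels.

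Within the tissue Sprr1a was far from even. The mean was 3.94 and 4.15 UMIs per spot at 24 h, and the richest single spots held 75 and 49. The richest 10% of spots held 46.8% and 44.4% of the UMIs at 24 h, 60.4% and 43.2% at 36 h, and 51.5%, 51.3%, 41.7% and 72.1% in 48 h A to D. Spot depth followed the normalised level little, with r from 0.0109 to 0.0993 across spots.

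**Figure D2:**
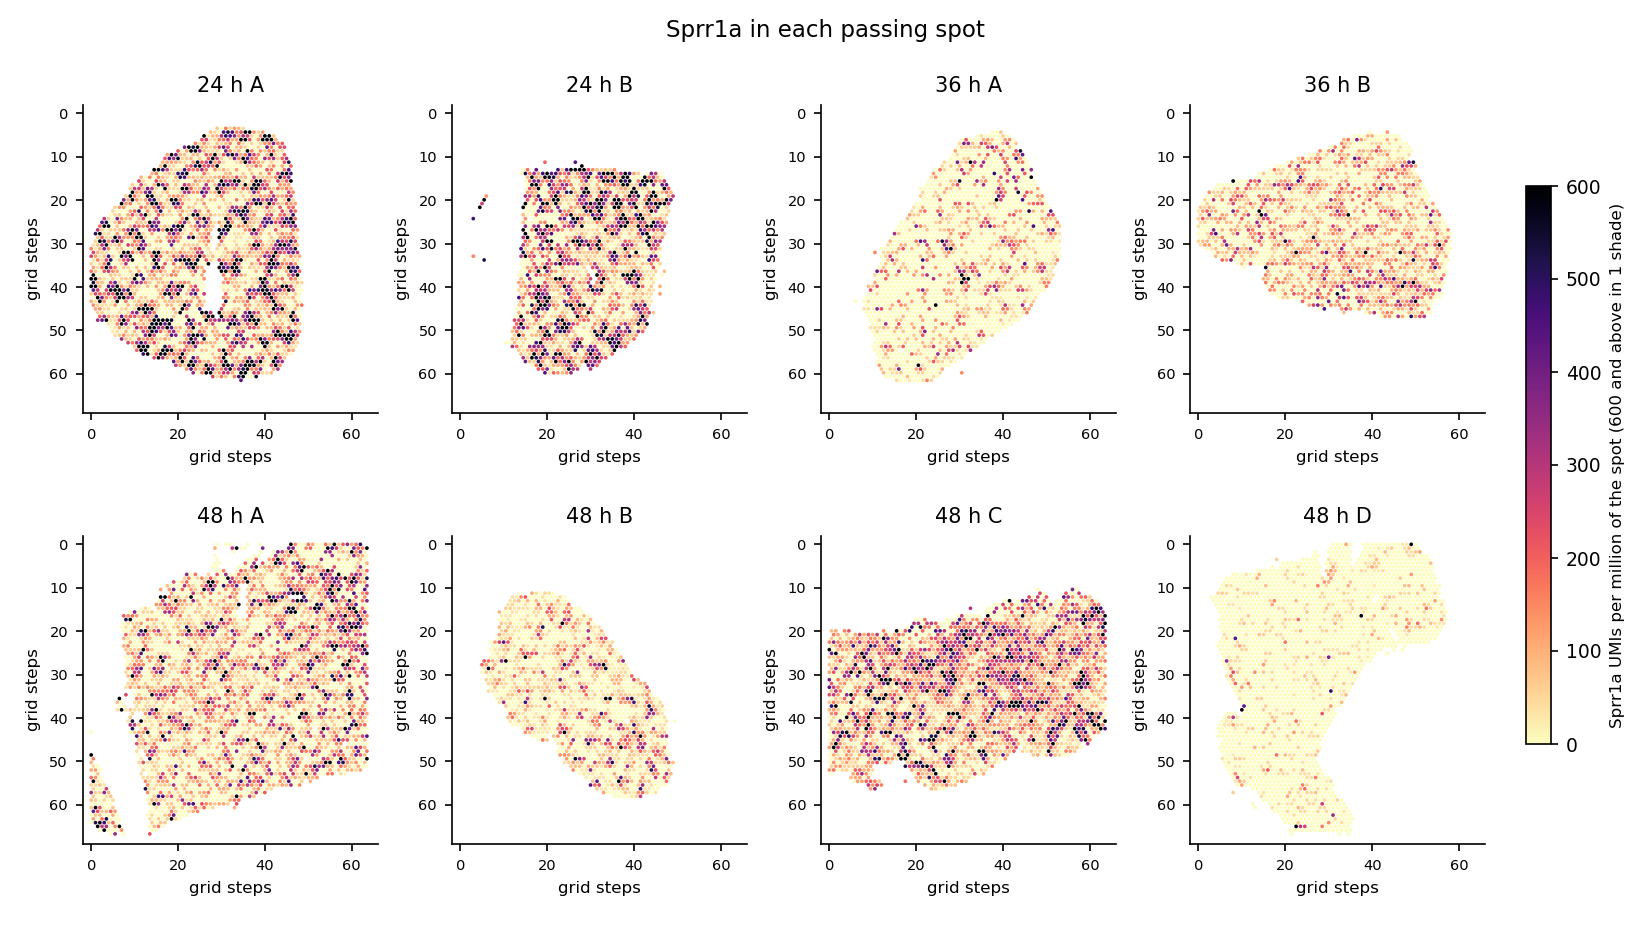
Each panel is 1 injured section drawn in grid steps of the spot array, with passing spots coloured by Sprr1a UMIs per 1000000 UMIs of the spot, capped at 600. High spots form small islands scattered over the 24 h and 48 h sections, and 48 h D, at 12.3 CPM, is nearly bare.

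Spots rich in Sprr1a lay next to each other. Moran's I, which is positive where neighbouring spots have like values, was 0.370 and 0.313 at 24 h, 0.182 and 0.148 at 36 h and 0.234, 0.257, 0.261 and 0.0993 in 48 h A to D. The median gene of a section had an I of 0.00787 to 0.0202, and Sprr1a stood at the 91.5th to 99.6th percentile of the 10135 to 11532 genes compared, lowest in 48 h D. Thinned to 2000 UMIs, where fewer counts stand behind each spot, I was 0.0109 to 0.134.

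The islands were small. A spot correlated with those 1 step away at r 0.370 in 24 h A and 0.313 in 24 h B, at 0.0640 and 0.0892 with those 2 steps away, and at −0.0559 and −0.0230 at 3 steps. Across the 8 sections r at 3 steps was between −0.0559 and 0.0192. Of the neighbours of the richest 10% of spots, 17.0% to 24.3% were themselves among the richest 10%, and the largest unbroken patch held 7 to 12 spots in any section.

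**Figure D3:**
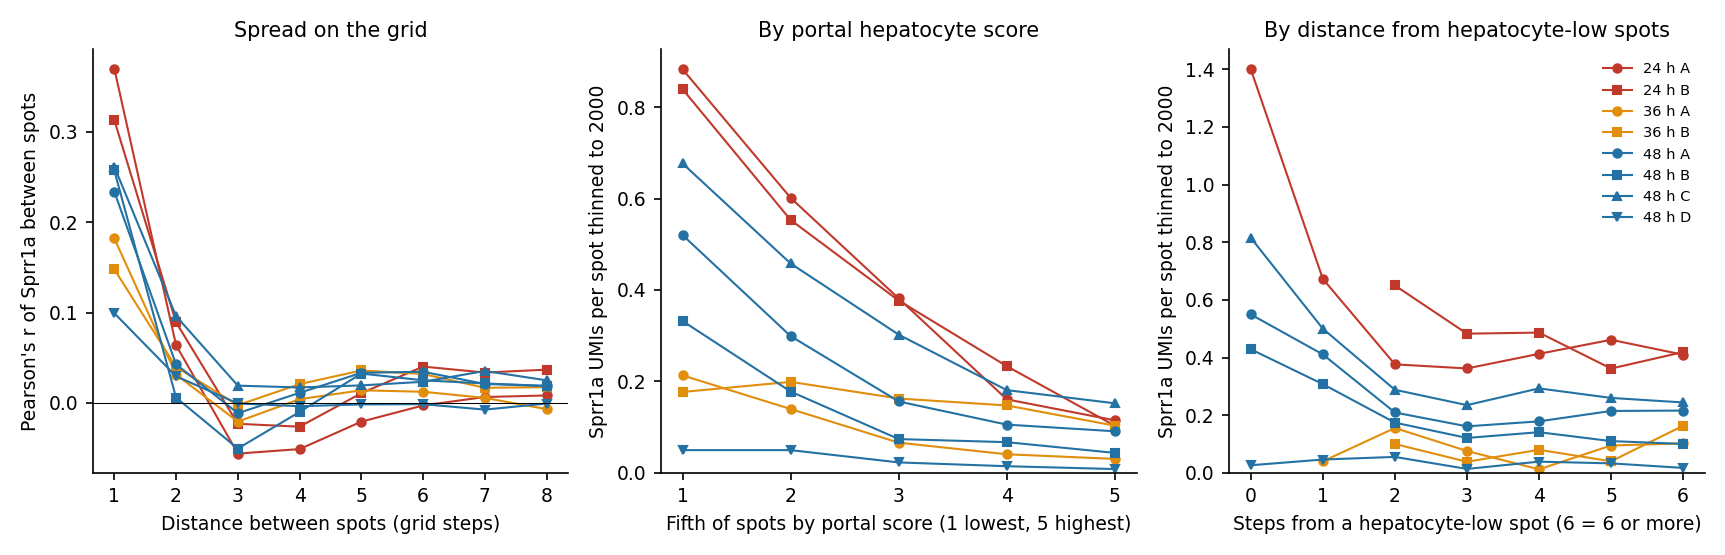
The left panel plots Pearson's r of Sprr1a between spots against their distance in grid steps, the middle panel its mean UMIs per 2000 UMIs in quintiles of spots ranked by portal hepatocyte score, and the right panel its mean by steps from a hepatocyte-low spot, with 1 line per section. The correlation nears 0 by 3 steps, and in 24 h A the mean falls from 0.883 in the least portal quintile to 0.115 in the most portal.

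The transcript was scarce where portal hepatocyte genes were high. Hepatocytes around the portal vein and those around the central vein express different enzymes, and the 12 portal genes were used to rank the spots of each section into quintiles. In 24 h A the mean was 0.883, 0.602, 0.381, 0.161 and 0.115 Sprr1a UMIs per 2000 from the lowest portal quintile to the highest. In 24 h B it was 0.839, 0.553, 0.377, 0.233 and 0.103. The level fell at each step in both sections.

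At 36 h section A went from 0.213 in the lowest portal quintile to 0.0305 in the highest. Section 36 h B was flatter, with 0.177 and 0.103 at the ends and its highest value, 0.199, in the quintile next to the lowest. At 48 h the ends were 0.520 and 0.0909 in A, 0.332 and 0.0436 in B, 0.677 and 0.152 in C, and 0.0497 and 0.00826 in D. Even D, with the least Sprr1a, had the same direction.

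Spots above the 67th percentile of portal score were then compared with those at or below the 33rd in each section. The mean log2 ratio of Sprr1a was −1.96 ± 0.640 (SD, n = 8 sections), lower in 8 of 8. The two-sided exact permutation test that flips the sign of each section gave p = 0.00781, the smallest that 8 sections allow, and an adjusted p of 0.0146 over the 15 classes tested. The portal genes were drawn by the study from its own spatial data, so the list is not independent of these sections. Its summed level fell from between 25960 and 35068 CPM at 0 h to between 12683 and 18149 CPM after injury.

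The central list did not mirror it. Sprr1a in spots with high against low score for the 23 central hepatocyte genes had log2 ratios of 0.67 and 0.045 in 24 h A and B. The ratios were −0.29 and −0.44 at 36 h and −0.97, −0.86, −1.07 and −1.04 in 48 h A to D. The mean was −0.49 ± 0.620 (n = 8, exact permutation p = 0.0625, adjusted p = 0.0852). The central list had fallen from 38737 to 45071 CPM at 0 h to between 10670 and 18365 CPM after injury.

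Spots poor in hepatocyte transcripts carried more Sprr1a in 4 sections. A spot was hepatocyte-low if its hepatocyte score lay below the 1st percentile of 0 h spots, and sections entered with at least 20 such spots. Means in these spots against spots at least 3 steps away were 1.40 against 0.411 UMIs per 2000 in 24 h A (20 spots), 0.550 against 0.191 in 48 h A (111 spots), 0.429 against 0.114 in 48 h B (21 spots) and 0.815 against 0.254 in 48 h C (157 spots). In 48 h D (38 spots) they were 0.0263 against 0.0226, which is close to parity. So few UMIs stand behind the first of these means that it cannot place 48 h D on either side. Sections 24 h B, 36 h A and 36 h B had 4, 5 and 3 such spots and were left out.

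The mean log2 ratio over these sections was 1.37 ± 0.691, higher in 5 of 5, with an exact permutation p of 0.0625 that is the smallest 5 sections allow (adjusted p = 0.0852). Without 48 h D it was 1.67. With the hepatocyte-low limit at the 5th percentile the mean ratio was 1.54 (exact permutation, adjusted p = 0.0117). More sections entered there, since 5 allow no p below 0.0625. Spots touching a hepatocyte-low spot lay between in 4 sections, at 0.673 in 24 h A, and 0.411, 0.308 and 0.50 in 48 h A, B and C. In 48 h D they held 0.0462, above both the hepatocyte-low and the far spots. Over 6 sections their mean log2 ratio was 0.63 ± 0.877, higher in 5 of 6 (exact permutation, adjusted p = 0.234), the exception being 36 h A at −1.10. The outer border of the tissue showed a mean log2 ratio of −0.036 with 4 of 8 sections higher (exact permutation, adjusted p = 0.695).

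By the full hepatocyte list Sprr1a was lower in high-scoring spots in 8 of 8 sections, by a mean log2 ratio of −0.69 ± 0.342 (exact permutation, adjusted p = 0.0146). Albumin made up a median 59.8% of that list's UMIs, and without it, a variant chosen after seeing the data, the ratio was −0.42 (exact permutation, adjusted p = 0.0625). The list also holds the haptoglobin gene Hp, whose mean r with Sprr1a across spots at 24 h was the lowest of all genes compared (−0.715). The part of Hp in this ratio and in the hepatocyte-low class was not tested. The migratory hepatocyte list, 21 matched genes of the study's human signature for hepatocytes that move into the wound, went the other way at 1.18 ± 0.389 in 8 of 8 (exact permutation, adjusted p = 0.0146), and at 0.87 without its most abundant gene Anxa2 (exact permutation, adjusted p = 0.0219). In sections A and B at 24 h the migratory ratios were 0.80 and 1.27, at 36 h 1.61 and 0.49, and in 48 h A to D 1.45, 1.58, 1.19 and 1.05. Every section was above 0.

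**Figure D4:**
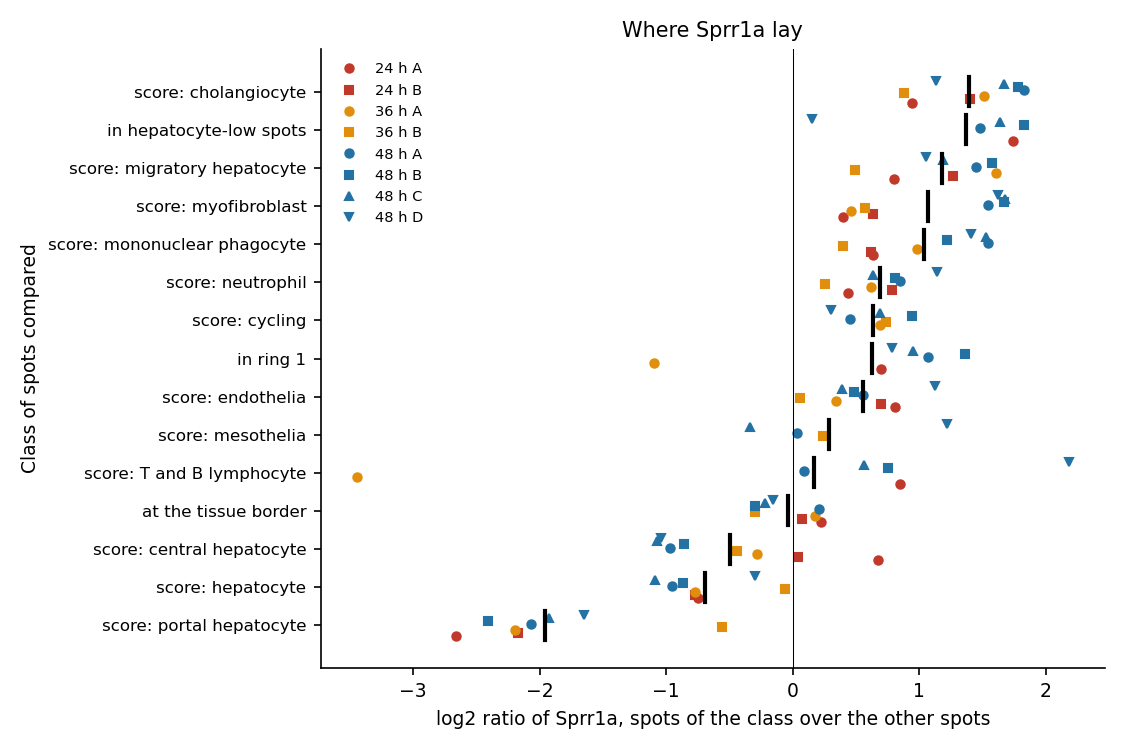
Each point is 1 injured section's log2 ratio of mean Sprr1a between 2 classes of spots, and each bar is the mean over sections, for the 15 classes tested. The portal hepatocyte score lies farthest below 0 at a mean of −1.96, and the cholangiocyte, hepatocyte-low, migratory hepatocyte, myofibroblast and mononuclear phagocyte classes have means above 1.

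Markers of non-parenchymal cells also shared spots with Sprr1a. Mean log2 ratios were 1.39 ± 0.372 for the cholangiocyte list, 1.07 ± 0.599 for myofibroblasts, 1.04 ± 0.451 for mononuclear phagocytes, 0.69 ± 0.270 for neutrophils and 0.56 ± 0.325 for endothelia (n = 8). Each was higher in 8 of 8 sections, with an adjusted p of 0.0146 by exact permutation. Where a list's transcripts were sparse, tied scores made the 2 classes unequal in size. In 24 h A, 176 neutrophil-high spots stood against 2345, and 181 endothelia-high ones against 1621. The cholangiocyte result leans on Krt8, a keratin that hepatocytes also express and a median 81.9% of that list's UMIs. Without Krt8 the ratio was 0.63, higher in 6 of 8 (exact permutation, adjusted p = 0.0984). Without Eng the endothelial ratio was 0.31 (exact permutation, adjusted p = 0.0547), while the myofibroblast, mononuclear phagocyte and neutrophil ratios without their top gene were 1.05, 0.90 and 0.77 (exact permutation, adjusted p = 0.0219 each).

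Summed levels of some of these lists were higher after injury, while endothelial genes stayed between 202 and 325 CPM in every section. Myofibroblast genes summed to between 37.5 and 45.9 CPM at 0 h, 70.4 and 99.3 at 24 h, and 483 and 1185 at 48 h, and neutrophil genes to between 3.54 and 9.88 at 0 h and 42.6 and 148 at 24 h. None of the matched genes of these lists was at 0. Cycling genes gave a mean log2 ratio of 0.64 ± 0.224 in 6 of 6 sections (exact permutation, adjusted p = 0.0521), mesothelial genes 0.29 in 3 of 4 and lymphocyte genes 0.17 in 5 of 6 (exact permutation, adjusted p = 0.695 and 0.781). A spot can hold several cells, so these ratios say which transcripts lay near Sprr1a and not which cell made it.

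By r across spots the ferritin genes followed Sprr1a most closely at 24 h. Pearson's r was taken across the passing spots of a section, which share a library, and it is given as a description. Highest over 9945 genes were the ferritin light chain Ftl1 at r 0.767 in section A and 0.706 in B, and the heavy chain Fth1 at 0.689 and 0.696. Ferritin is the cell's iron store. Counting noise lowers r for scarce genes, so such a ranking favours abundant ones. Ftl1 and Fth1 stood at means of 7089 and 12676 CPM at 24 h.

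Of the chaperone genes among the highest 15, Hspe1, a mitochondrial chaperonin, stood at a mean r of 0.661, Hspb1, the small heat-shock protein Hsp27, at 0.621, and the inducible Hsp70 gene Hspa1b at 0.574. Also among them were the peroxiredoxin Prdx1 (0.628), the autophagy receptor Sqstm1 (0.623), the sulfiredoxin Srxn1 (0.618) and the glutathione transferase Gsta1 (0.576). The cytoskeletal genes Krt8 (0.636) and Actg1 (0.607), Rpl37, Rps20 and Eef1a1 of the translation machinery and Tpt1 (0.573 to 0.581), completed the highest 15. Ferritin, ribosomal and translation genes, Gsta1 and Hspa1b have near-identical copies or pseudogenes elsewhere in the genome, so the counts assigned to each are less certain.

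The 10 lowest genes at 24 h all encode secreted plasma proteins. Hp, the haemoglobin scavenger haptoglobin, had a mean r of −0.715 at 24 h, complement C3 −0.696 and the protease inhibitor Serpina1e −0.692. The fibrinogen chains Fgb, Fgg and Fga stood at −0.698, −0.684 and −0.674, and transferrin (Trf), fetuin-A (Ahsg), Orm1 and Serpina1b at −0.658 to −0.674. Hepatocytes make all of these, and Hp stood at a mean of 18114 CPM in the 24 h sections.

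Both 24 h sections ranked genes alike. Of the 15 genes with the highest r in section A, 10 were also in the highest 15 of section B and 13 in its highest 100, and the worst placed ranked 573 of 9945. Of the 15 highest in B, 10 were in the highest 15 of A and the worst placed ranked 22. For comparison, the median gene had r of 0.0300 to 0.0700 with Sprr1a in the 8 injured sections and the 99th percentile was 0.212 to 0.462. The genes behind these values were not matched for abundance to the genes named. With Spearman's rho on thinned counts 11 of the 15 genes named at 24 h kept a place in the highest 15, the worst ranking 28, at rho of 0.176 to 0.397.

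**Figure D5:**
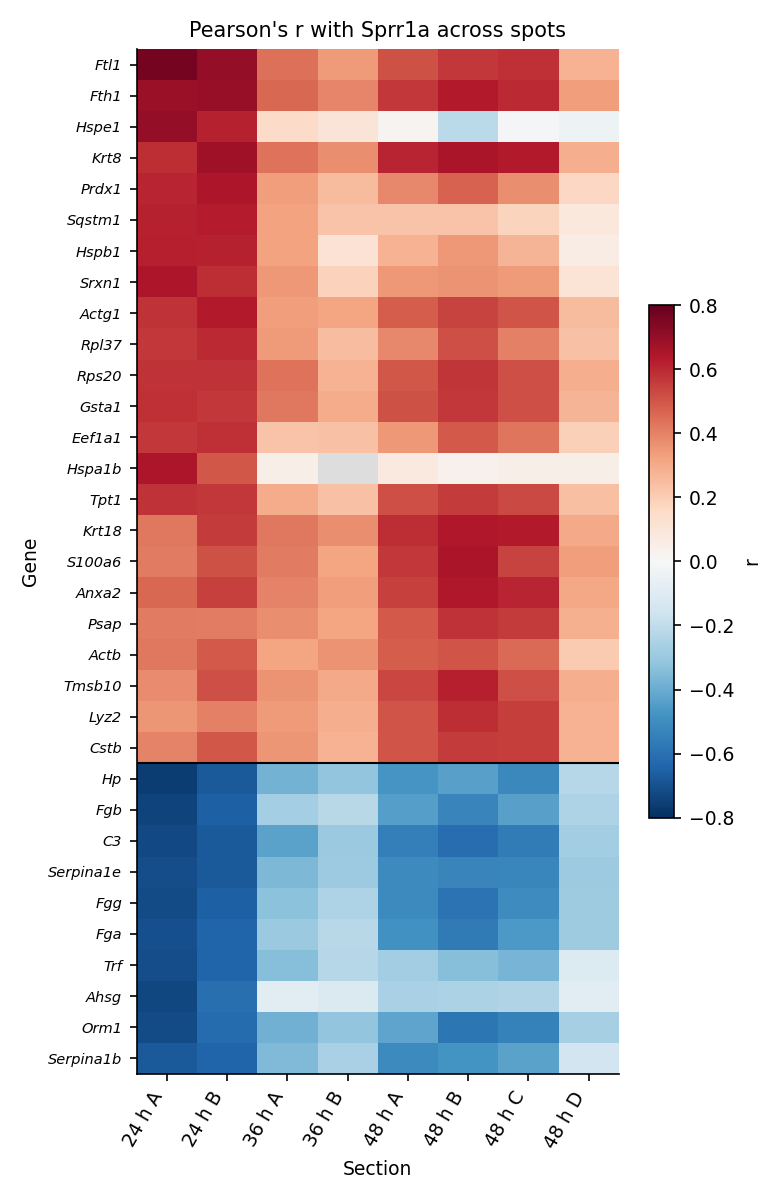
The heat map gives Pearson's r with Sprr1a across the passing spots of each injured section for the 23 genes named as highest at any time (above the line) and the 10 lowest at 24 h (below it). Grey marks a gene below the 5% detection limit in that section. The chaperones Hspe1 and Hspa1b are high at 24 h and at or below 0.151 later. The chaperone Hspb1 stays positive in every section, as do Krt8, Fth1 and Ftl1.

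The company of Sprr1a changed with time. At 36 h the highest were Fth1 (mean r 0.425), Krt8 (0.404), the keratin partner Krt18 (0.397), Ftl1 (0.392), the calcium-binding S100a6 (0.367) and the membrane-binding annexin Anxa2 (0.365). Gsta1, Rps20, the lysosomal Psap and Actb followed at 0.339 to 0.358. At 48 h they were Krt8 (0.548), Krt18 (0.544), Fth1 (0.533), Anxa2 (0.527) and S100a6 (0.525), then Tmsb10, Ftl1, the macrophage lysozyme Lyz2, Psap and the cathepsin inhibitor Cstb at 0.475 to 0.490.

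Of the highest 10 genes at each time, 7 were shared by 36 h and 48 h and 3 by 24 h and 48 h, namely Fth1, Ftl1 and Krt8. Hspe1, with r of 0.704 and 0.618 at 24 h, had 0.151 and 0.103 at 36 h and 0.0210, −0.217, −0.0177 and −0.0433 in 48 h A to D. Hspa1b fell to between 0.0328 and 0.0790 in the later sections where it was measured, while its mean level went from 220 CPM at 24 h to 6.04 and 3.92 CPM. The chaperone Hspb1 stayed above 0, at 0.321 and 0.116 at 36 h and 0.281, 0.347, 0.269 and 0.0589 in 48 h A to D. In 48 h D, where Sprr1a had the fewest UMIs per spot, the r of the genes named at 48 h were 0.277 to 0.335, below those of 48 h A, B and C, which were 0.491 to 0.655.

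Across sections the closest gene was a keratin. Over the 8 injured sections Krt18 had r = 0.991 with Sprr1a in log2 CPM, the highest of 8129 genes, and 0.989 without 48 h D. Krt18 stood at 217, 235 and 270 CPM at 0 h, 1060 and 1127 at 24 h, 592 and 775 at 36 h, and 900, 668, 1040 and 294 in 48 h A to D. It thus ordered the injured sections much as Sprr1a did, but from a high level in uninjured liver. Vasn, Tmem238, Atp6v1g1 and Krt8 followed at r of 0.962 to 0.971, and at 0.899 to 0.935 without 48 h D. The 0 h sections did not enter these r. Tmem238 stood at 86.9 to 95.7 CPM at 0 h and lower, at 46.2 to 77.5, in the injured sections. Atp6v1g1 stood at 143 to 149 CPM at 0 h and 117 to 176 after injury. All 5 genes were picked as the highest of many over few sections, of which several share a time point, and carry no test.

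Sprr1a was nearly the sole member of its family in these livers. It contributed 43593 UMIs over the 11 sections against 620 for all other SPRR genes together, or 98.6% of the family. Of its 13 matched relatives, 7 had any UMI and 4 had at least 10. Their copies resemble each other closely, so the division of reads between the Sprr2 genes is uncertain.

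Sprr2i, one of the Sprr2 cluster, had no UMI at 0 h and stood at 4.26 and 2.84 CPM at 24 h, at least 166-fold higher against a floor of 3 UMIs over the 0 h group. At 36 h it was at 0.232 and 0.0571 CPM and at 48 h it held 0 or 1 UMI per section. Sprr2b held 11 UMIs at 0 h, 10 of them in replicate 4 (0.282 CPM). It stood at 1.46 and 0.191 CPM in 24 h A and B, and at 0.390 to 0.689 CPM at 48 h. Section 24 h B thus lay below that uninjured replicate. Sprr1b, the other Sprr1 gene, had 1 UMI at 0 h and 43 and 6 UMIs at 24 h (ratio 85.1, 95% counting interval 14.6 to 3428). Sprr2a3 had 30 UMIs in all. Only Sprr2i and Sprr2b passed the count filter. Sprr2i, with no UMI at 0 h, entered through injured sections and could only be called higher. Sprr2b held most of its UMIs in injured sections too, so these calls are no independent evidence on the family. Both were called higher at 24 h, Sprr2i alone at 36 h and neither at 48 h (edgeR, Sprr2b at 24 h adjusted p = 0.0437).

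Genes of the pathways known to surround Sprr1a were then counted in the same fit. Their lists were chosen with earlier results of these data known. The counts and p-values below therefore describe these sections and are no independent evidence on the pathways. Of all 14821 genes, 23.1% passed as higher and 18.6% as lower for 24 h, 16.8% and 12.4% for 36 h, and 23.3% and 20.9% for 48 h against 0 h, at an adjusted p under 0.05 in edgeR. The comparisons share the 0 h sections. Of the 48 listed genes tested, 30 were higher and 4 lower at 24 h, 19 and 2 at 36 h, and 21 and 4 at 48 h. Among them Sprr2i, Krt5, Il11 and Lif had no UMI at 0 h and Fosl1 had 1. These passed the count filter through injured sections and could hardly be called lower, so their calls carry little weight. Without 0 h replicate 4 the 36 h count of calls was 12, and without 36 h B it was 11, in place of 21. Without 48 h D the 48 h count was 22 in place of 25. Under total-count scaling the calls were 35 higher and 2 lower at 24 h, 30 and 1 at 36 h, and 35 and 0 at 48 h, while 80.4%, 94.1% and 93.7% of all calls were then higher, against 55.4%, 57.5% and 52.7%. Of the genes said below not to pass, Il6st and Stat3 were then higher at both later times, Dsp at 24 h and 48 h, and Jun, Krt10 and Atf2 at 48 h, whereas in DESeq2 Dsp and Atf2 were lower at 36 h. Statements below are for TMM scaling in edgeR unless said otherwise.

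Transglutaminases and partners in the cornified envelope rose in part. Of 22 listed, 10 had enough counts to be tested. Among those 10, 5 were higher and none lower at 24 h (median log2 change 0.62, against 0.047 over all genes), and 4 were higher at each later time (0.37 and 0.27, against 0.048 and 0.011). Tgm2, a widely expressed transglutaminase, stood at 74.9, 70.8 and 89.5 CPM at 0 h, 164 and 191 at 24 h, and 83.4 to 117 CPM in the 6 later sections (24 h log2 change 1.18, SE 0.17, edgeR adjusted p = 0.00042). Every 24 h section was above every other section.

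Lor, which encodes loricrin, the main protein of the envelope in skin, went from 1.76, 1.82 and 1.36 CPM to 17.2 and 15.7 at 24 h (log2 3.31, edgeR adjusted p = 6.33e-05). Its 36 h values were 5.76 and 2.62 CPM, followed by 1.79, 1.33, 0.889 and 1.53 CPM in 48 h A to D, within or below its 0 h range. Ppl, the envelope scaffold periplakin, was higher at all 3 times (log2 0.85, 1.09 and 1.17), and the junction protein Jup at the later ones (0.42 and 0.35). The desmosomal Dsp and the keratin Krt10 passed the test at no time.

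Most AP-1 subunits were higher at 24 h. Of 13 tested, 8 were higher and none lower at 24 h (median 1.05), 5 higher at 36 h (0.62), and 6 higher and 1 lower at 48 h (0.21). Junb stood at 14.0, 9.79 and 7.48 CPM at 0 h, 22.7 and 63.6 at 24 h, 19.3 and 30.6 at 36 h, and 26.8, 38.8, 24.1 and 23.2 in 48 h A to D (log2 2.04, 1.26 and 1.44, edgeR adjusted p = 0.00341 at 24 h). Atf3, a stress-induced partner of Jun proteins, was at 3.61 to 7.77 CPM at 0 h and 36.5 and 34.4 CPM at 24 h (log2 2.55, edgeR adjusted p = 0.000483). Jun itself stood at 17.1 to 34.5 CPM at 0 h and 24.4 and 38.2 at 24 h, and it passed the test at no time.

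Fosl2 was higher at 24 h (log2 1.26) and Jund higher at 24 h (0.60) and lower at 48 h (−0.73), the latter not under total-count scaling. Atf2 passed at no time. Fosl1, the Fos-family protein Fra-1, is named after its values were seen. It had 1 UMI at 0 h and stood at 13.8 and 18.3 CPM at 24 h, 2.95 and 6.19 at 36 h and 4.68, 1.79, 1.95 and 0.650 in 48 h A to D. Among the sections it, like Sprr1a, was near absent at 0 h and highest at 24 h.

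In the gp130 pathway 4 ligands, the receptor Osmr and the feedback inhibitor Socs3 were higher at 24 h. Osmr had a log2 change of 1.90 (edgeR adjusted p = 0.00107) and was higher at both later times too (0.96 and 1.24). Il6ra, also a receptor, was higher at 36 h only (1.55). Lower at 24 h were the receptors Lifr, Il11ra1 and Cntfr and the ligand Ctf1. Of these, Il11ra1 and Ctf1 did not pass under total-count scaling (edgeR adjusted p = 0.504 and 0.0578). Of 19 listed, 17 had enough counts to be tested. Among those 17, 9 were higher and 4 lower at 24 h (median 0.71), 4 and 2 for 36 h (0.12, or 0.11 with Il11 and Lif, absent at 0 h, at their floors), with 6 and 3 for 48 h (0.18). The ligand Il11, named after its values were seen, had no UMI at 0 h and stood at 4.69 and 9.38 CPM at 24 h, at least 296-fold higher, and at no more than 0.0717 CPM in any later section.

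The shared receptor Il6st, gp130 itself, stood at 66 to 74.5 CPM at 0 h and 106 and 123 at 24 h (log2 0.71, edgeR adjusted p = 0.000843), and passed the test at neither later time. The transducer Stat3 went from between 65.7 and 79.5 CPM in uninjured sections to 105 and 150 CPM at 24 h (log2 0.86, edgeR adjusted p = 0.0014). Lifr, the receptor for leukaemia inhibitory factor, fell from 164 to 268 CPM at 0 h to 48.3 and 32.3 at 24 h (log2 −2.32, edgeR adjusted p = 0.00556), and it was at 136 CPM in 48 h D against 42.0 to 66 CPM in the other 48 h sections. Il11ra1 was lower by small amounts at each time (−0.46, −0.43 and −0.38), and the sign turned at 36 h and 48 h under total-count scaling. Cebpb passed at no time, nor did Jak1 with TMM scaling, while with total-count scaling Jak1 was higher at all 3 (log2 0.53, 0.56 and 0.58).

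Most of the tested genes known from regenerating neurons were higher. Of 13 listed, 8 had enough counts to be tested. Among those 8, 7 were higher at 24 h (median 2.46) and 6 at each later time (1.88 and 1.57), none lower. Atf3 and Jun are also AP-1 subunits and were counted above. Hspb1 stood at 30.5 to 38.0 CPM at 0 h, 365 and 351 at 24 h (log2 3.39, edgeR adjusted p = 0.00281), 66 and 36.0 at 36 h, and 31.7, 31.4, 32.7 and 145 in 48 h A to D. Section 48 h D, the lowest in Sprr1a, was here the highest of its time.

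The transcription factor gene Klf6 was higher at all 3 times (log2 2.33, 1.79 and 1.79), as were the growth-cone protein gene Basp1 (2.14, 2.29 and 3.26) and the growth-arrest gene Gadd45a (2.38, 1.98 and 1.14). Basp1 stood at 1.18 to 1.76 CPM at 0 h, 4.71 and 8.68 at 24 h, 5.21 and 9.59 at 36 h and 12.3, 13.8, 20.01 and 11.6 in 48 h A to D. Its highest values were thus at 48 h, unlike those of Sprr1a.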

How the data were processed

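Spatial expression was measured with Visium in 11 liver sections. Each deposited table holds unnormalised UMI counts, 31053 genes by 4992 barcodes. All 11 sections share these barcodes, which are array positions. The submitters' processing notes name Space Ranger 1.0.0, Seurat 4.1.1 and mm10. The member and gene lists were chosen with earlier results of these data known.

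Spots on tissue with 800 or more genes and no more than 20% mitochondrial UMIs entered. The study's manual removal of isolated spots was not repeated. Counts were summed per section and fitted with edgeR 4.0.16 in R 4.3.3 (filterByExpr, TMM, quasi-likelihood, all 11 sections, two-sided, Benjamini-Hochberg over 14821 genes). DESeq2 1.42.0 was an alternative, and edgeR ran on limma 3.58.1. Spatial measures used Python 3.11.15, numpy 2.4.6, pandas 2.3.3 and scipy 1.17.1, with figures from matplotlib 3.10.9.

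For location tests each spot was thinned to 2000 UMIs and a section's log2 ratio of mean UMIs per 2000 (plus 0.01) entered an exact sign-flip permutation test over sections, adjusted over 15 classes. A spot's list score was the mean over genes of ln(1 + UMIs per 10000) on thinned counts. The central and portal lists are the study's, from its own spatial data. Counting intervals (95%) and the floor of 3 UMIs cover counting error only.

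Genes named were Sprr1a, the 15 with the highest and 10 with the lowest mean r with it across spots at 24 h (detected in at least 5% of spots, ln scale), the 10 highest at 36 h and at 48 h, the 5 highest across injured sections (at least 10 CPM), SPRR genes with at least 10 UMIs, and up to 6 of each other list by mean CPM. The 48 h against 36 h step, first set down as a test, is given as a value because the gene was chosen by changes at both times. Steps were tested on simulated data. Alternatives changed scaling, tool, filters, groups in the fit, thinning (5000 or none), pseudocount (0.1), percentiles, distances and sections left out.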

Additional observations from a re-analysis of the deposited data

Results flagged for a closer look

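Section 48 h D had a Moran's I of 0.0993 for Sprr1a, set apart from the 0.234 to 0.261 of the other 48 h sections by more than Dixon's test allows at 4 samples. Of 22 such groups of 4 sections tested, 1 was marked in this way, and chance marks about 1 in 20.

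The ratio of Sprr1a between spots of high and low central hepatocyte score had opposite signs at 24 h and later. The log2 ratios were 0.67 and 0.045 in 24 h A and B, −0.29 and −0.44 in 36 h A and B, and −0.97, −0.86, −1.07 and −1.04 in 48 h A to D. The difference between times was not tested. Over the classes, 31 pairs of times were looked at.

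Spots off the tissue, which no comparison between times used, held Sprr1a well above the highest 0 h value of 0.0956 CPM. Its level there, scaled to the plain total, was 174 and 176 CPM in 24 h A and B, 34.7 and 64.7 CPM in 36 h A and B, and 97.5, 51.9, 127.4 and 12.4 CPM in 48 h A to D.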

How the results depend on the processing

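Of 272 alternative values of tests and counts, 248 kept their direction and their side of the threshold (or, for counts of listed genes, stayed within 1.5 times), 7 changed sign, 12 newly passed a threshold, 3 no longer passed one and 2 counts moved by over 1.5 times. Sections, not spots, are the units, so 8 sections at most stand behind a location test, and the low UMI count per thinned spot limits classes with few spots.

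Under the 5th percentile the hepatocyte-low log2 ratio was 1.54 and that of its touching ring 0.93, with 5000 UMIs per spot they were 1.58 and 0.81, and without thinning 1.48 and 0.80, each past the threshold (exact permutation, adjusted p = 0.0117 to 0.0195). More sections entered these variants than the 5 and 6 of the main tests, which allow no p below 0.0625 and 0.0313. The border ratio turned to 0.062 with 5000 UMIs and 0.072 without thinning. The mesothelial ratio was −0.25 and 0.35, and the lymphocyte ratio 0.37 and 0.53, under the same changes, and the cycling ratio was 0.62 with 5000 UMIs (exact permutation, adjusted p = 0.0391). Without the most abundant gene, chosen after seeing the data, the hepatocyte, cholangiocyte and endothelial ratios were −0.42, 0.63 and 0.31, no longer past the threshold, and the lymphocyte list gave no value. The cause of these changes was not tested.

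With each section left out in turn, the 48 h against 36 h difference ran from 0.038 to 0.94, and the listed genes called from 26 to 38 at 24 h, 11 to 22 at 36 h and 19 to 26 at 48 h. Location ratios ran from 1.25 to 1.67 (hepatocyte-low), 0.48 to 0.97 (ring), −0.073 to 0.00093 (border, at 0.00076 without 36 h B and 0.00093 without 48 h B), −0.78 to −0.64 (hepatocyte), −0.66 to −0.41 (central, −0.66 without 24 h A with exact permutation adjusted p = 0.0469), −2.15 to −1.85 (portal), 1.12 to 1.28 (migratory), 1.33 to 1.47 (cholangiocyte), 0.48 to 0.63 (endothelia), −0.023 to 0.50 (mesothelia, −0.023 without 48 h D), −0.24 to 0.89 (lymphocyte, −0.24 without 48 h D) and 0.57 to 0.70 (cycling). Section 24 h A, with 16 cycling-high spots, never entered the cycling test. Leaving it out kept the cycling ratio at 0.64, and its exact permutation adjusted p became 0.0469 only through the adjustment over the other classes.

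Sections of different times share letters, and same-lettered sections deviated from their group means with r of 0.391 for 24 h with 36 h (1 value, since 2 sections mirror each other), −0.144 and −0.168 for 24 h with 48 h, and 0.0913 and −0.293 for 36 h with 48 h. Not every pair was above 0.1 and no label ties the letters, so they were not taken as pairs. With the letter as a replicate block on the 8 injured sections the 48 h against 36 h log2 difference was 0.51. That edgeR fit called 0 genes (1223 at an unadjusted p under 0.05), as did the fit of the 36 h and 48 h sections alone (2234), against 452 in edgeR with all sections and 1227 in DESeq2.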

Other observations

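Genes with a wider range than Sprr1a between the 48 h sections, named after their values were seen, were of other kinds. The acute-phase serum amyloid genes Saa2 and Saa1 had ratios of highest to lowest section of 22.5 and 17.2. Both are close copies of each other, so the split of reads between them is uncertain. Saa1 stood at 42.5, 193, 661 and 731 CPM in 48 h A to D, so D, the lowest in Sprr1a, was its highest. The steroid dehydrogenase gene Hsd3b5, at 4.97, 29.5, 7.36 and 102 CPM, and the cytokine-signalling inhibitor gene Socs2, at 12.3, 2.94, 6.68 and 45.0 CPM, were also highest in D. Cyp4a14, a fatty acid hydroxylase gene, was lowest there at 13.2 CPM and highest in A at 189 CPM.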
